A study of Mus musculus with 21 samples.

Results

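The genes described are 10 of the 47069 in the count table: Ccl2, Ccl3, Ccl4, Ccl6, Ccl7, Ccl8, Ccl9, Ccl17, Ccl22 and Ccl24, taken by gene name as CC chemokine genes of macrophages. RNA was sequenced from 21 libraries of mouse bone marrow-derived macrophages, in 7 groups of 3. Precursors from C57BL/6 marrow had differentiated over 5 days under M-CSF, the growth factor of macrophages, and were then kept for 36 h without added cytokine or with IL-33 or IL-4. Wild-type cells received no cytokine, IL-33 or IL-4, while cells labelled ST2-/- and cells labelled Cx3cr1CRExGata3fl/fl received no cytokine or IL-33. ST2 (gene Il1rl1) is the receptor for IL-33, and Gata3 encodes a transcription factor of type 2 immunity. In the last strain the Cre recombinase is driven by Cx3cr1, a gene of the monocyte and macrophage lineage, and none of the groups carries the Cre or the floxed alleles alone. Age, sex, cytokine concentration and the number of animals behind the libraries were not given in the sources used here. The p-values accordingly reflect variation among libraries that may be technical.

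CC chemokines are small secreted proteins with adjacent cysteines that guide leukocytes along concentration gradients through receptors of the G protein-coupled family. Macrophages are among their main sources. Ccl2, Ccl7 and Ccl8 belong to the monocyte chemoattractant group. Ccl3 and Ccl4 are macrophage inflammatory proteins, and Ccl6 and Ccl9 are rodent chemokines that signal through Ccr1. Ccl17 and Ccl22 attract Ccr4-bearing lymphocytes and are textbook genes of IL-4 exposed myeloid cells, and Ccl24 is an eotaxin that attracts eosinophils through Ccr3.

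Sequencing depth was 32626469 to 48743646 counts per library. All 8 macrophage markers listed were detected in each group, among them Adgre1 (F4/80) at 830 to 2262 and Csf1r, the M-CSF receptor, at 2107 to 4102 CPM (each count relative to its library's total, scaled by the TMM method of edgeR). Neither deletion was seen at gene level. Il1rl1 measured 15.7 CPM in wild-type and 17.4 CPM in ST2-/- labelled libraries without cytokine, and Gata3 held 4 to 37 counts per group, the highest in floxed-labelled libraries. With IL-33, mean Il1rl1 was 15.7 CPM in wild-type, 15.8 CPM in ST2-/- labelled and 6.44 CPM in floxed-labelled libraries. The part of Il1rl1 in the chemokine levels was not tested. Gene-level counts do not separate exons, so they do not check an allele that still yields a transcript, and the genotypes are called "ST2-/- labelled" and "floxed-labelled" (for Cx3cr1CRExGata3fl/fl) throughout. Xist, expressed from the inactive X chromosome, measured 277 to 376 CPM in the 6 floxed-labelled libraries and held at most 3 counts per group elsewhere, whereas the Y-linked Ddx3y held at most 1 count per floxed-labelled group and 61.0 to 86.3 CPM elsewhere. Sex and the floxed label cannot be told apart in these libraries.

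The 10 genes lie at 4 places in the GRCm38 mouse genome, and none shared exon bases or 100-base runs of sequence with another annotated gene. Ccl2 (chr11:82035571-82037453), Ccl7 (chr11:82045712-82047525) and Ccl8 (chr11:82115185-82116799) stand in 1 row on the plus strand of chromosome 11, with Ccl11 and Ccl12 between Ccl7 and Ccl8. Farther along the same chromosome, Ccl9 (chr11:83572919-83578636), Ccl6 (chr11:83587882-83593087) and Ccl3 (chr11:83647844-83649355) lie on the minus strand beside Ccl4 (chr11:83662584-83664683) on the plus strand. Ccl22 (chr8:94745590-94751699) and Ccl17 (chr8:94810453-94812036) are plus-strand neighbours on chromosome 8, 58.8 kb apart with Cx3cl1 between them. Ccl24 (chr5:135569937-135573049) lies on the minus strand of chromosome 5, 6.37 kb from Ccl26.

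RefSeq start sites with sequence were matched for 6 of the 10 genes (Ccl3, Ccl6, Ccl8, Ccl9, Ccl17 and Ccl22), while Ccl2, Ccl4, Ccl7 and Ccl24 were not matched. The 250 bases before each start were searched on both strands for the letters TTCNNNNGAA, GGGNNNTTCC and TGANTCA. TTCNNNNGAA is the spacing bound by STAT6, the factor downstream of IL-4. GGGNNNTTCC is an NF-kB site, and TGANTCA is a loose form of the AP-1 site that admits any middle letter. NF-kB and AP-1 are factors downstream of IL-33. A TTCNNNNGAA match occurred in 1 of the 6 windows, that of Ccl17, 154 bases before the start, and in 5.85% of 32851 RefSeq windows of the same length. GGGNNNTTCC (4.65% of windows) and TGANTCA (6.75%) each occurred in 1 of the 6 windows, both in Ccl9, 35 and 53 bases before the start. These matches do not overlap each other, are descriptions of letters, and the windows of Ccl3, Ccl6, Ccl8 and Ccl22 held none of the 3 letter patterns. The RefSeq start of Ccl22 lies inside the gene as placed above (from chr8:94745590), so part of its window is within that gene. The 4 windows below are those of the genes with a match and of the 2 genes with the largest difference between IL-33 and IL-4; capitals mark the matches, and each is written 5′ to 3′ on the gene's strand from the RefSeq table of GRCm38.p6. They are Ccl17 (chr8:94810203-94810452, plus strand), Ccl9 (chr11:83578637-83578886, minus strand), Ccl22 (chr8:94745434-94745683, plus strand) and Ccl8 (chr11:82114935-82115184, plus strand).
Ccl17: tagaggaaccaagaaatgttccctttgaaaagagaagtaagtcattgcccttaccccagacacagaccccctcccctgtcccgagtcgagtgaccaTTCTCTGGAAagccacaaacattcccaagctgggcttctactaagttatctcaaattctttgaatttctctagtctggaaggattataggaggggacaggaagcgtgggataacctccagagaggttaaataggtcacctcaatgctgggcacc
Ccl9: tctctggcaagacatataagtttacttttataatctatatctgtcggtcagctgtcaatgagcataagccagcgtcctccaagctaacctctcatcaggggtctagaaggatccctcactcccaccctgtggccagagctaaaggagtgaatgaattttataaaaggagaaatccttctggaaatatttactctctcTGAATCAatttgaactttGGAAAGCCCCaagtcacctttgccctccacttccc
Ccl22: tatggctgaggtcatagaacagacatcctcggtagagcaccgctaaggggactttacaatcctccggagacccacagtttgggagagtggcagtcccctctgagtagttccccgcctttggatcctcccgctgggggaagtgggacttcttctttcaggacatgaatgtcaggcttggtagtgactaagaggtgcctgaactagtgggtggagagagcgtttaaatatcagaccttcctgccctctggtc
Ccl8: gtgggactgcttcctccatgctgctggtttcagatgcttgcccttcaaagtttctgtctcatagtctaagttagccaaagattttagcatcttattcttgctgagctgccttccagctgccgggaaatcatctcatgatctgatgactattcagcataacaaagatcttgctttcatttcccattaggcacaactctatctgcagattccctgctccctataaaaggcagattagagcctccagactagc

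IL-33 raised nearly the whole group in wild-type cells. Of the 10 genes, 9 rose and 0 fell, and the exception was Ccl3, with an adjusted p of 0.117 by the quasi-likelihood test of edgeR. Over all 14473 genes tested in this comparison, 18.5% were called higher and 16.9% lower at an adjusted p under 0.05. The median log2 change of the 10 genes was 2.20, beside 0.00 over all genes tested. All 10 genes passed the expression filter, but Ccl8 and Ccl17 passed only through libraries with cytokine, so their rise follows in part from their being tested. Without them 7 of 8 genes rose. Overlap of libraries between groups is described below for single genes, and its share over all genes was not counted. In these bulk cultures, a change in the share of expressing cells and a change in RNA per cell cannot be told apart.

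**Figure D1:**
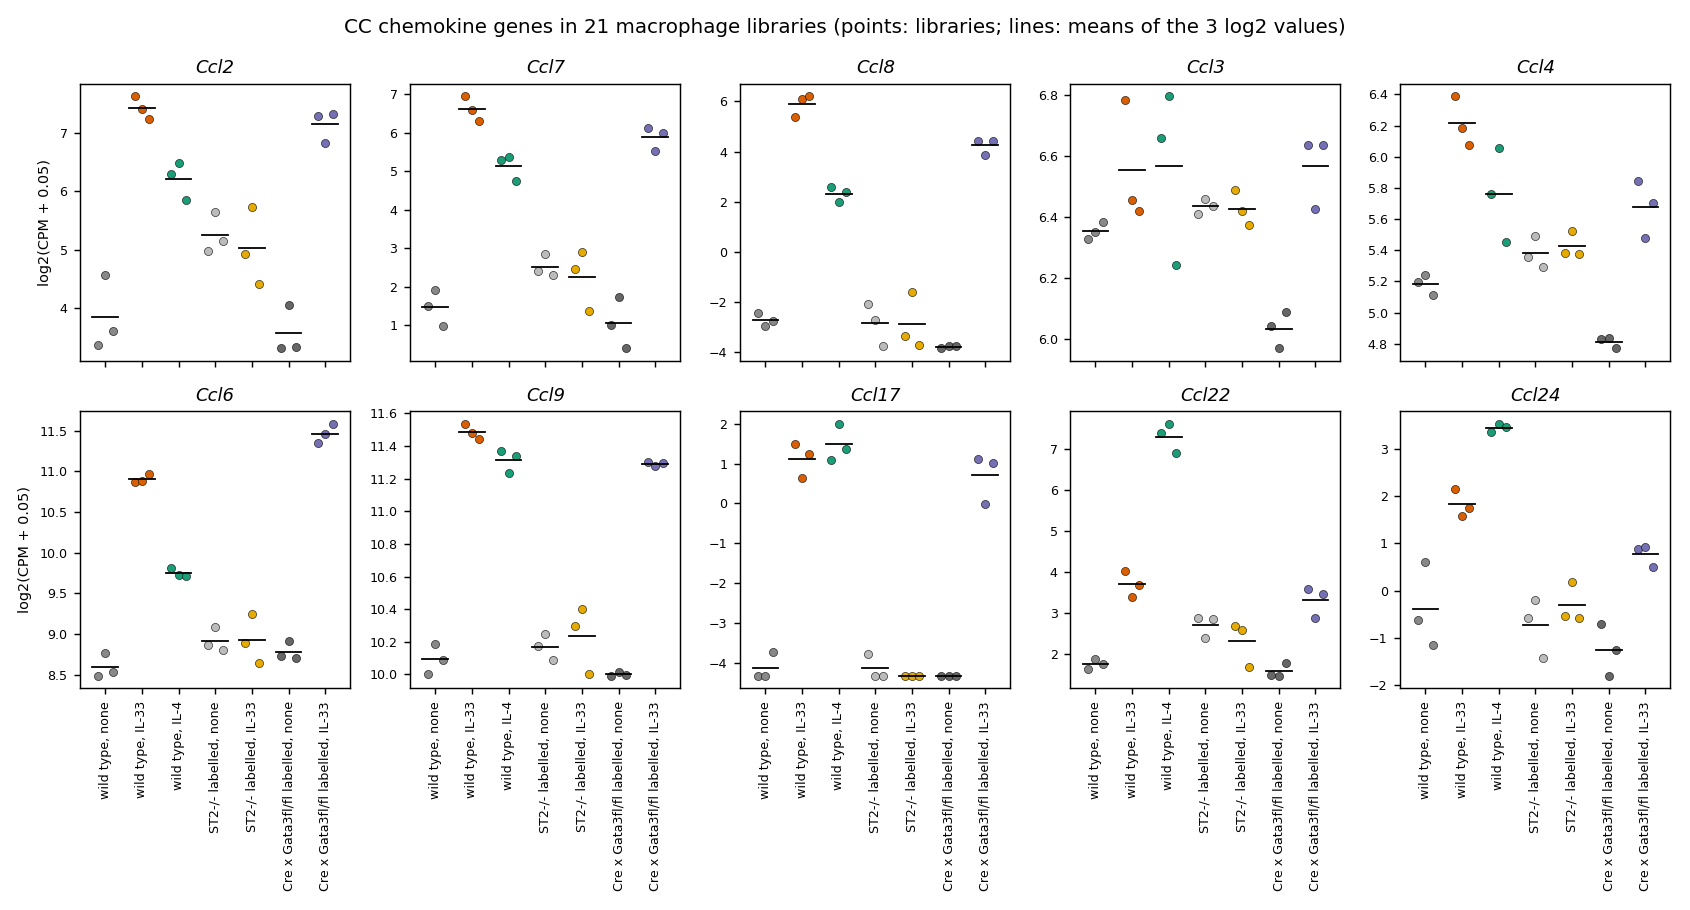
Level of each CC chemokine gene in every library, as log2 of CPM plus 0.05 on the vertical axis (scales differ between panels), for the 7 groups on the horizontal axis. Points are libraries and lines are means of the 3 log2 values. The IL-33 points of wild-type and floxed-labelled cells lie well above those without cytokine in every panel but that of Ccl3, the ST2-/- labelled groups overlap in all 10, and Ccl22 and Ccl24 are highest with IL-4.

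The monocyte chemoattractants rose by large folds. Ccl2, the main ligand of Ccr2, measured 10.2, 23.7 and 12.1 CPM without cytokine and 199, 170 and 152 CPM with IL-33. All 3 IL-33 libraries were far above the untreated ones, an 11.3-fold difference (log2 change 3.50 ± 0.31 SE, adjusted p = 7.9e-09). Ccl7, also a Ccr2 ligand, measured 2.79, 3.71 and 1.93 CPM without cytokine and 123, 96.2 and 78.4 CPM with IL-33. The groups were again fully separated, 35.4-fold apart (5.15 ± 0.31, adjusted p = 1.8e-11). Ccl8, which in mice acts through Ccr8, was barely detected without cytokine, with 5, 3 and 4 counts, and reached 1588, 2776 and 2622 counts (42.0, 68.2 and 73.8 CPM) with IL-33. The fitted difference was 571-fold (9.16 ± 0.36, adjusted p = 2.4e-14), and the ratio of the summed counts, 12 against 6986, was 587 with an exact 95% interval of 336 to 1137. Such count intervals cover counting error alone, and reads carry no molecular identifiers.

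The Ccr1 ligands were the most abundant members and rose by smaller folds. Ccl6 measured 359, 437 and 370 CPM without cytokine and 1877, 1884 and 2006 CPM with IL-33. No libraries overlapped, and the difference was 4.94-fold (2.31 ± 0.11, adjusted p = 3.7e-13). Ccl9 measured 1026, 1167 and 1090 CPM without and 2967, 2859 and 2790 CPM with IL-33, also without overlap, a 2.62-fold difference (1.39 ± 0.07, adjusted p = 7.7e-13).

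Of the 2 macrophage inflammatory proteins, whose genes are neighbours 13.2 kb apart, only Ccl4 passed the test, and the difference between them was not tested. Ccl4 measured 36.6, 37.7 and 34.6 CPM without cytokine and 83.7, 72.7 and 67.3 CPM with IL-33, and its groups did not overlap (2.05-fold, 1.04 ± 0.11, adjusted p = 1.5e-07). Ccl3 measured 80.3, 81.5 and 83.4 CPM without and 110, 87.7 and 85.6 CPM with IL-33. The IL-33 libraries were all slightly higher, but the log2 difference of 0.21 ± 0.10 did not pass the test, with a 95% interval up to 0.42.

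The Ccr4 ligands and the eotaxin stayed low in absolute level under IL-33. Ccl17 held 0, 0 and 1 counts without cytokine and 105, 61 and 82 counts with IL-33 (2.78, 1.5 and 2.31 CPM). Its summed counts rose from 1 to 248, a ratio of 250 with a counting interval of 44.5 to 9920 (adjusted p of the fit 1.6e-07). Ccl22 measured 3.06, 3.63 and 3.33 CPM without and 16.2, 10.5 and 12.8 CPM with IL-33, separated groups that differed 3.93-fold (1.97 ± 0.24, adjusted p = 8.4e-07). Ccl24 measured 0.601, 1.48 and 0.401 CPM without and 4.39, 2.92 and 3.29 CPM with IL-33 (4.26-fold, 2.09 ± 0.35, adjusted p = 4.8e-05). Untreated replicate 2 was the highest of its group for Ccl24 and still lay below every IL-33 library.

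IL-4 raised the same number of genes, 9 of 10, with 0 lower, and Ccl3 again did not pass (adjusted p = 0.0662). Over all genes 25.1% were called higher and 22.5% lower. Without Ccl8 and Ccl17, 7 of 8 rose. This comparison uses the same untreated wild-type libraries as the one with IL-33, so the pair is not independent. The median log2 change of the 10 genes was 2.98, beside 0.00 over all genes.

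Ccl22 was the member with the clearest IL-4 level. Its 3 IL-4 libraries measured 167, 194 and 119 CPM, all far above the untreated range of 3.06 to 3.63, a 47.8-fold difference (5.58 ± 0.24, adjusted p = 1.8e-14). Ccl24 measured 10.1, 11.4 and 11 CPM with IL-4, 13-fold above untreated cells without overlap (3.71 ± 0.35, adjusted p = 7.3e-09). Ccl17 held 66, 162 and 114 counts with IL-4 (2.09, 3.92 and 2.53 CPM). Against 1 untreated count the ratio was 333, with a counting interval of 59.4 to 13206 (adjusted p of the fit 3.4e-08).

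The remaining members also responded to IL-4, less than to IL-33 in several cases. Ccl2 measured 78.4, 89.3 and 57.5 CPM (4.88-fold above untreated cells, adjusted p = 1.5e-06), and Ccl7 measured 39.2, 41.5 and 26.9 CPM (12.8-fold, adjusted p = 1.5e-09). Ccl8 measured 6.01, 3.89 and 5.22 CPM with IL-4, 46.7-fold above untreated cells (adjusted p = 4.0e-10), and its count ratio of 586 to 12 was 47.6 with an interval of 27.0 to 92.7. For these genes, the IL-4 libraries lay above every untreated library. Ccl6 at 843 to 897 CPM was 2.22-fold higher, Ccl9 at 2407 to 2648 CPM was 2.33-fold higher and Ccl4 at 43.8 to 66.6 CPM was 1.51-fold higher, with adjusted p-values of 8.2e-09, 2.4e-12 and 1.3e-04. Ccl3 measured 101, 111 and 75.7 CPM with IL-4, and IL-4 replicate 3 lay below the untreated range. Without that replicate the log2 difference of Ccl3 was 0.37 (adjusted p = 8.8e-04).

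**Figure D2:**
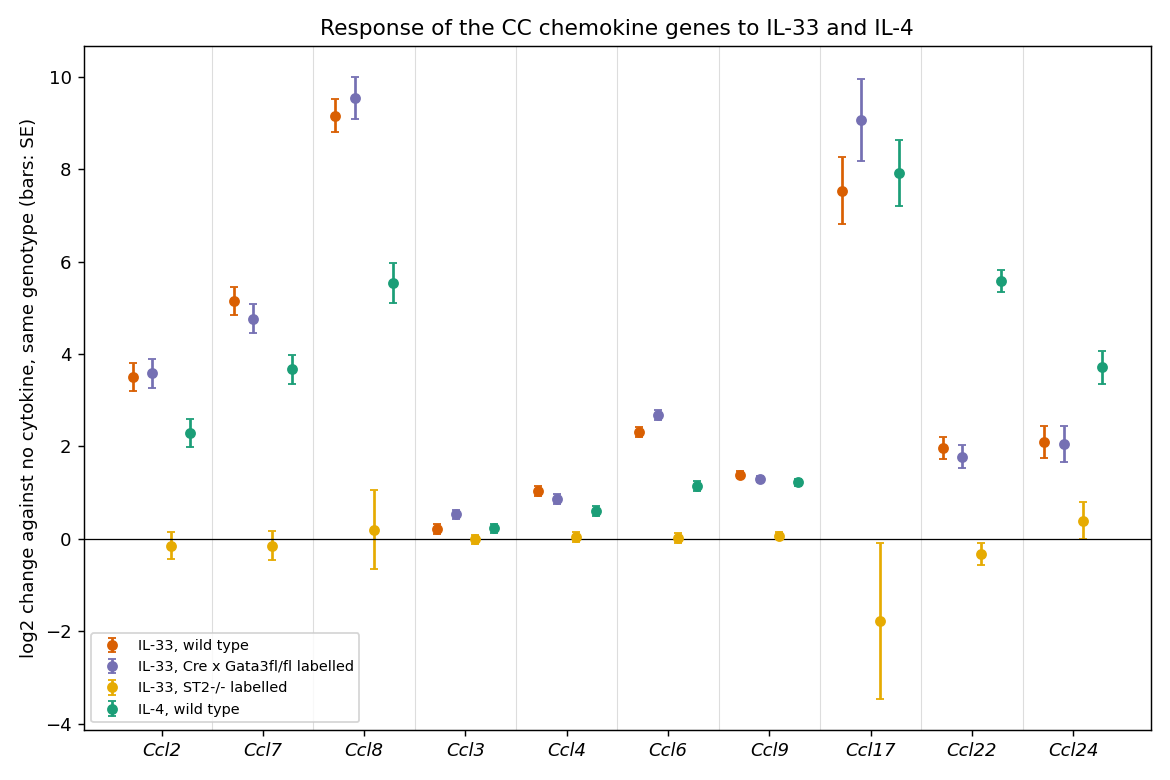
Fitted log2 change against no cytokine in the same genotype (vertical axis, bars are standard errors) for each gene on the horizontal axis, with IL-33 in 3 genotypes and IL-4 in wild-type cells. The ST2-/- labelled points lie around 0 except that of Ccl17 (-1.78 ± 1.68). IL-33 exceeds IL-4 for Ccl2, Ccl7, Ccl8, Ccl4 and Ccl6 whereas IL-4 exceeds IL-33 for Ccl22 and Ccl24. The Ccl17 points rest on groups with 0 or 1 counts, and their size depends on the prior count of the fit.

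Compared directly, IL-33 and IL-4 gave different levels of 7 of the 9 ligand genes that both raised. In IL-33 treated wild-type cells 5 of the 10 genes were higher than in IL-4 treated cells and 2 were lower, while 19.2% of all genes were called higher and 20.7% lower. Higher with IL-33 were Ccl8 by 12.2-fold (3.61 ± 0.22, adjusted p = 9.2e-12), Ccl7 by 2.77-fold (adjusted p = 3.8e-05), Ccl2 by 2.32-fold (0.00121), Ccl6 by 2.23-fold (8.7e-09) and Ccl4 by 1.36-fold (0.00253). Lower with IL-33 were Ccl22, also by 12.2-fold (-3.61 ± 0.21, adjusted p = 3.1e-12), and Ccl24 by 3.06-fold (-1.61 ± 0.30, adjusted p = 1.4e-04). None of these 7 genes had overlapping libraries, a description with no share over all genes beside it. All 3 monocyte chemoattractants were thus on the IL-33 side. Of the 2 neighbouring Ccr4 ligands only Ccl22 was called lower with IL-33, and the difference between these 2 was not tested. Ccl17 did not pass (log2 difference -0.38, 95% interval -1.16 to 0.40), nor did Ccl3 (-0.02, interval -0.23 to 0.19). Ccl9 was 1.13-fold higher with IL-33 at an adjusted p of 0.0513. Its libraries measured 2790 to 2967 CPM with IL-33 and 2407 to 2648 CPM with IL-4, without overlap. It passed in 7 of the alternative fits. Among these its adjusted p was 0.0499 without IL-33 replicate 3 and 0.0462 without IL-4 replicate 1.

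The length-scaled levels show how the mixture of transcripts differed. In CPM per kb of exon, untreated wild-type cells held Ccl9 at 359 ± 23.1 (SD, n = 3), Ccl6 at 217 ± 23.7, Ccl3 at 107 ± 2.03 and Ccl4 at 55.0 ± 2.38, with Ccl2 at 13.5 ± 6.40 and each of the other 5 genes under 4. With IL-33, Ccl6 at 1071 ± 40.4 stood above Ccl9 at 943 ± 29.3. Ccl2 (153 ± 21), Ccl7 (124 ± 28.2), Ccl3 (123 ± 17.5), Ccl8 (120 ± 33.2) and Ccl4 (113 ± 12.7) then lay within or near each other's spread. With IL-4, Ccl9 at 837 ± 41.2 stood above Ccl6 at 480 ± 17.1, followed by Ccl3 at 125 ± 23.6 and Ccl4 at 83.1 ± 17.3. Ccl22 at 68.8 ± 16.3 and Ccl2 at 66.0 ± 14.2 lay within each other's spread, and Ccl7 measured 44.8 ± 9.82. Ccl17 and Ccl24 stayed under 9 CPM per kb in every group, at most 5.54 and 8.35 with IL-4.

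The sum over the 10 genes was 757 ± 55.4 CPM per kb in untreated wild-type cells, 2659 ± 50 with IL-33 and 1729 ± 78.2 with IL-4. Ccl6 and Ccl9 together made up 76.1%, 75.7% and 76.3% of those sums, so their joint share was nearly equal. Their order was exchanged with IL-33 and not with IL-4. The exchange depends on the length scaling, because in CPM Ccl9 (2872) stayed above Ccl6 (1922) with IL-33. In floxed-labelled cells the sum was 726 ± 24.3 without cytokine and 2849 ± 145 with IL-33, and the joint share was 80.3% and 84.2%. In ST2-/- labelled cells the sums were 870 ± 62.7 and 891 ± 134.

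**Figure D3:**
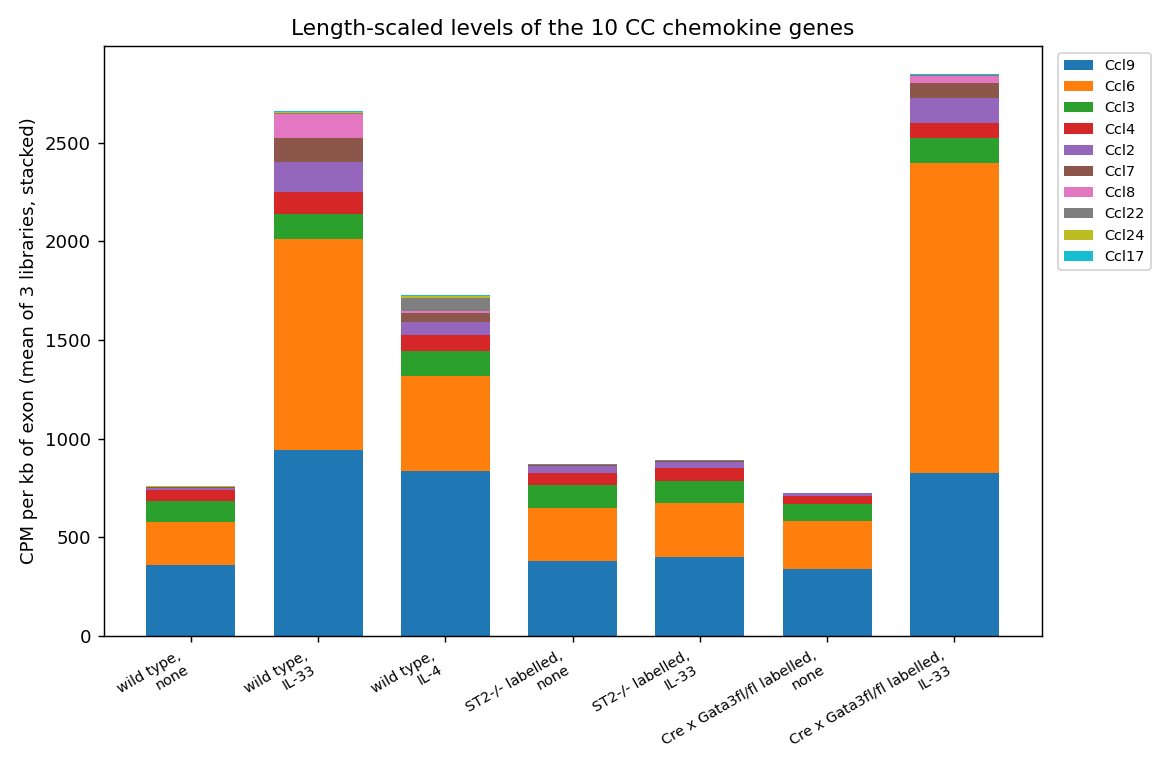
Stacked mean levels of the 10 genes in CPM per kb of exon (vertical axis, mean of 3 libraries) for the 7 groups. Ccl9 and Ccl6 fill most of every bar; the tallest bars are the IL-33 groups of floxed-labelled (2849) and wild-type cells (2659), and the IL-33 bar of ST2-/- labelled cells (891) is close to its untreated bar (870).

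In ST2-/- labelled cells, the comparison that asks whether the receptor is needed, 0 of the 10 genes were called higher and 0 lower with IL-33 by edgeR, as were 0% of all genes in either direction. DESeq2 also called 0. At an unadjusted p under 0.05 there were 507 genes, 3.50% of those tested, and 0 of the 10, whose lowest unadjusted p was 0.179 (Ccl22). Ccl6 measured 466, 544 and 448 CPM without cytokine and 475, 606 and 401 CPM with IL-33, which overlap fully. Its log2 change was 0.02 with a 95% interval of -0.20 to 0.25. Ccl9 changed by 0.07 (interval -0.07 to 0.22), Ccl4 by 0.04 (-0.19 to 0.28), Ccl3 by -0.01 (-0.22 to 0.20) and Ccl2 by -0.15 (-0.75 to 0.44).

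The low members were less tightly bounded. Ccl8 held 14 counts without and 15 counts with IL-33, a ratio of 1.16 with a counting interval of 0.520 to 2.58. Ccl17 held 1 count without and 0 with IL-33, which allows up to 3 counts over the group, or 0.0245 CPM. The fitted log2 changes of Ccl7, Ccl22 and Ccl24 were -0.15 (-0.80 to 0.49), -0.33 (-0.82 to 0.16) and 0.39 (SE 0.40). For all 10 genes the libraries of the groups overlapped, again without a share over all genes.

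The difference between the IL-33 responses of ST2-/- labelled and wild-type cells was tested as an interaction. It was lower for 9 of the 10 genes and higher for 0, against 12.1% of all genes lower and 10.6% higher; without Ccl8 and Ccl17 it was lower for 7 of 8. The largest differences not resting on groups near 0 counts were those of Ccl7 (log2 -5.30 ± 0.44, adjusted p = 8.2e-09) and Ccl2 (-3.65 ± 0.42, adjusted p = 9.2e-07). Ccl6 (-2.28 ± 0.15, adjusted p = 3.0e-10), Ccl22 (-2.30 ± 0.34, adjusted p = 2.4e-05), Ccl9 (-1.32 ± 0.10, adjusted p = 1.6e-09) and Ccl4 (-0.99 ± 0.16, adjusted p = 6.2e-05) followed. Ccl8 had a fitted difference of -8.96 ± 1.30 (adjusted p = 2.1e-05), and Ccl3 at -0.21 ± 0.14 did not pass (adjusted p = 0.311).

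The calls of Ccl17 and Ccl24 in this interaction depended on single libraries. Ccl24 (-1.70 ± 0.53, adjusted p = 0.0236) had an adjusted p between 0.0508 and 0.112 when any of 7 libraries was left out: untreated wild-type replicates 1 and 3, wild-type IL-33 replicate 1, untreated ST2-/- labelled replicates 1 and 2, and ST2-/- labelled IL-33 replicates 1 and 3. It was 0.0646 with the 4 groups fitted alone. Ccl17 (fitted difference -9.31, adjusted p = 0.0416) had an adjusted p between 0.0506 and 0.0622 without untreated wild-type replicate 1 or 2, wild-type IL-33 replicate 3 or any ST2-/- labelled IL-33 replicate, and of 1.00 without untreated ST2-/- labelled replicate 1. That library holds the group's single Ccl17 count.

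Under IL-33, ST2-/- labelled cells were below wild-type cells for 9 of the 10 genes and above for 0, where 19.1% of all genes were lower and 17.9% higher. Without Ccl8 and Ccl17, whose passing of the filter rests on the responding groups, 7 of 8 were lower. Ccl8, at 0.0475, 0.277 and 0.0271 CPM, was 488-fold lower in the fit, with a count ratio of 499 and an interval of 302 to 892. Ccl17, at 0 counts in all 3 libraries, was 88.6-fold lower when 3 counts over the group were taken as the floor. The exact 95% counting interval started at 71.5-fold. Ccl7 was 19.1-fold, Ccl2 4.95-fold, Ccl24 4.47-fold, Ccl6 3.89-fold, Ccl22 2.53-fold, Ccl9 2.37-fold and Ccl4 1.73-fold lower, each without overlap between libraries. The highest adjusted p among these 9 genes was 5.8e-05, for Ccl22. Ccl3 overlapped (log2 difference -0.13, 95% interval -0.34 to 0.07).

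Without cytokine, few differences between ST2-/- labelled and wild-type cells were called. Of the 10 genes, 1 was called higher and 0 lower, against 0.871% and 0.484% of all genes. The called gene was Ccl2, at 31.3, 49.8 and 35.5 CPM in ST2-/- labelled cells and 10.2 to 23.7 CPM in wild-type cells (2.53-fold, 1.34 ± 0.30, adjusted p = 0.0285). Its groups did not overlap, but the adjusted p of Ccl2 was 0.199 and 0.176 without untreated wild-type replicate 1 or 3, and 0.210 and 0.0568 without untreated ST2-/- labelled replicate 2 or 3. Ccl22, at 7.25, 5.20 and 7.19 CPM against 3.06 to 3.63 CPM, was 1.95-fold apart at an adjusted p of 0.0609, and the adjusted p of Ccl22 was 0.0204 with DESeq2 and 0.0189 with the compared groups fitted alone. Ccl7 (2.06-fold, adjusted p = 0.140) and Ccl6 (1.25-fold, adjusted p = 0.148) likewise had separated libraries and did not pass. The summed CPM of 8 dendritic cell markers, mostly the integrin gene Itgax, was 121 to 160 in these ST2-/- labelled libraries and 46.2 to 93.4 in the wild-type ones, and mitochondrially encoded genes took 0.248% to 0.317% and 0.129% to 0.198% of counts. Their part in the result was not tested.

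Floxed-labelled cells responded to IL-33 in all 10 genes. With IL-33, 10 of 10 were higher and 0 lower, and 8 of 8 were higher without Ccl8 and Ccl17. Over all genes 17.1% were called higher and 16.3% lower, a share of 51.1% higher among the calls, which was 40.1% with upper-quartile scaling. Ccl6 measured 425, 483 and 419 CPM without cytokine and 2604, 2818 and 3068 CPM with IL-33, fully separated and 6.40-fold apart (2.68 ± 0.11, adjusted p = 7.1e-14). Ccl2 measured 9.87, 16.5 and 10 CPM without and 158, 114 and 161 CPM with IL-33 (11.9-fold, adjusted p = 7.9e-09). Ccl7 measured 1.96, 3.29 and 1.28 CPM without and 69.0, 46.1 and 63.0 CPM with IL-33 (27.2-fold, adjusted p = 9.4e-11). In all of these the IL-33 libraries were the higher ones without exception.

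Ccl8 held 1 count in each untreated floxed-labelled library and 801, 484 and 750 counts with IL-33, a ratio of 851 with a counting interval of 291 to 4129. Ccl17 held 0 counts in the untreated libraries and 78, 31 and 69 counts with IL-33. It was 74.4-fold higher when 3 counts over the group were taken as the floor, and the exact 95% counting interval started at 59.9-fold. Ccl3, which attracts leukocytes through Ccr1 among other receptors, measured 65.9, 62.7 and 68.0 CPM without and 99.3, 86.0 and 99.3 CPM with IL-33. Its groups were separated and the 1.45-fold difference passed (0.53 ± 0.10, adjusted p = 2.4e-04). Ccl24 was 4.18-fold, Ccl22 3.43-fold, Ccl9 2.45-fold and Ccl4 1.83-fold higher, with a highest adjusted p of 2.7e-04, for Ccl24.

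No difference between the IL-33 responses of floxed-labelled and wild-type cells was called for any of the 10 genes by edgeR. The counts were 0 higher and 0 lower, where 0.539% and 0.677% of all genes were called, and DESeq2 also called 0 of the 10. At an unadjusted p under 0.05 there were 1973 genes and 2 of the 10. These were Ccl6, with a log2 difference of 0.37 (95% interval 0.06 to 0.68, adjusted p = 0.269), and Ccl3, with 0.33 (0.03 to 0.62, adjusted p = 0.310). The intervals of Ccl9 (-0.30 to 0.10) and Ccl4 (-0.50 to 0.16) were narrow. Those of Ccl2 (-0.79 to 0.95), Ccl22 (-0.92 to 0.53), Ccl7 (-1.33 to 0.57), Ccl24 (-1.34 to 1.29) and Ccl8 (-1.84 to 2.60) were wide, and differences within these bounds were not detectable here. For Ccl17 the fitted difference rests on 0 and 1 untreated counts.

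Levels of the labelled and wild-type cells could also be set against each other at each treatment. Under IL-33, 1 of the 10 genes was higher in floxed-labelled cells and 4 were lower, against 5.50% and 5.85% of all genes. Ccl6 was 1.47-fold higher (adjusted p = 0.00117), with every floxed-labelled library above the wild-type range of 1877 to 2006 CPM. Ccl8 was 3.19-fold lower, at 21.6, 14.7 and 21.5 CPM against 42.0 to 73.8 CPM in wild-type cells (adjusted p = 5.4e-06), and Ccl4 was 1.45-fold lower (adjusted p = 0.00246). Both were separated from the wild-type libraries. Ccl7 was 1.67-fold lower (adjusted p = 0.0489) and Ccl24 2.11-fold lower (adjusted p = 0.0340), also without overlap.

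These last 2 calls depended on single libraries, and that of Ccl7 also on the scaling and the tool. The adjusted p of Ccl7 was 0.208 and 0.111 without wild-type IL-33 replicate 1 or 2, and 0.0586, 0.191 and 0.0998 without floxed-labelled IL-33 replicate 1, 2 or 3. It was 0.0506 with upper-quartile scaling and 0.181 with DESeq2. That of Ccl24 was 0.128 and 0.0614 without wild-type IL-33 replicate 1 or 3, and 0.0700, 0.0620 and 0.132 without floxed-labelled IL-33 replicate 1, 2 or 3.

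Without cytokine, 0 of the 10 genes were higher and 2 were lower in floxed-labelled cells, against 5.60% and 4.25% of all genes. Ccl3, at 62.7 to 68.0 CPM, was 1.25-fold below the wild-type range of 80.3 to 83.4 CPM (adjusted p = 0.0485). Its neighbour Ccl4, at 27.3 to 28.6 CPM, was 1.29-fold below the range of 34.6 to 37.7 CPM (adjusted p = 0.0450). The libraries did not overlap. With upper-quartile scaling the adjusted p of Ccl3 was 0.0506. Leaving out any 1 of the 6 libraries compared gave an adjusted p of 0.0676 to 0.174 for Ccl3 and of 0.0656 to 0.112 for Ccl4, and the log2 differences stayed between -0.29 and -0.35 for Ccl3 and between -0.35 and -0.41 for Ccl4. The dendritic marker sum was 101 to 167 CPM in these floxed-labelled libraries and that of 7 neutrophil markers 35.3 to 39.5 CPM, against 46.2 to 93.4 and 17.2 to 21.2 CPM in wild-type libraries, and their part in the result was not tested.

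Ordered over the 7 groups by mean CPM, the members fell into distinguishable patterns. Ccl7 and Ccl8 ran from wild-type IL-33 through floxed-labelled IL-33 to wild-type IL-4, each separated from the next, with the 4 remaining groups far below. Ccl2 had the same order, with its first 2 groups overlapping, and ST2-/- labelled cells (38.9 and 35.0 CPM) next. Ccl6 was highest in floxed-labelled cells with IL-33 (2830 CPM), then in wild-type cells with IL-33 (1922 CPM) and with IL-4 (862 CPM), all separated. Ccl22 and Ccl24 were highest in wild-type cells with IL-4, and the 2 IL-33 responding groups came next, overlapping for Ccl22 and separated for Ccl24. Ccl9 was highest in wild-type cells with IL-33 (2872 CPM), above the overlapping wild-type IL-4 and floxed-labelled IL-33 groups, and its 4 lower groups overlapped their neighbours. Ccl4 was also highest in wild-type cells with IL-33 (74.6 CPM), while wild-type IL-4, floxed-labelled IL-33 and both ST2-/- labelled groups overlapped in turn. Ccl17 did not separate among its 3 upper groups, and Ccl3 overlapped between all neighbouring groups except that untreated floxed-labelled cells lay below the rest.

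Across the 21 libraries, Pearson correlations of log2(CPM + 0.5) described the same patterns. These points share the 7 group means, so the values describe likeness. Ccl7 was most like Ccl9 (0.98) and Ccl2 (0.97) among the members, and Ccl22 was most like Ccl24 (0.93), while Ccl6 and Ccl22 were the least alike (0.37). Among 9745 protein-coding genes outside the group with a mean log2 CPM of at least 2, the most similar to Ccl6 was Ccr1 (0.987). The most similar gene to Ccl2 was Igf2bp2 (0.971), to Ccl7 Pla2g4a (0.984), to Ccl8 N4bp1 (0.991) and to Ccl9 Nfil3 (0.988). For Ccl22 it was Il4i1 (0.984), for Ccl17 Mmp13 (0.984), for Ccl24 Pdia6 (0.977), for Ccl4 Uchl1 (0.933) and for Ccl3 Cdk2 (0.836).

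Of 12 other CC ligand genes 4 passed the expression filter. With IL-33 in wild-type cells 2 of these 4 rose and 0 fell, beside 18.5% and 16.9% of all genes. Ccl12, a mouse monocyte chemoattractant that lies 11.8 kb from Ccl8, measured 0.0820, 0.363 and 0.401 CPM without cytokine and 19.9, 20 and 20.2 CPM with IL-33 (69.4-fold, adjusted p = 4.7e-11). It rose 6.03-fold with IL-4 and 50.1-fold with IL-33 in floxed-labelled cells, and its level there was 3.04-fold below wild-type IL-33 cells (adjusted p = 4.9e-04). Ccl5, which attracts T cells and monocytes, rose 1.93-fold with IL-33 (adjusted p = 0.00471), fell 1.56-fold with IL-4 (adjusted p = 0.0498) and rose 2.53-fold with IL-33 in floxed-labelled cells. Ccl25 and Ccl27a did not pass in any of the 11 comparisons, and 26.5% of the 100-base runs of Ccl27a occur in near-identical copies. Ccl11, the eotaxin that lies between Ccl7 and Ccl12, held 1 count over the 21 libraries together, and Ccl19, Ccl20 and Ccl21a held 0.

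Receptors of these ligands were measured in the same cells. Of 13 receptor genes 7 were tested, and with IL-33 in wild-type cells 4 rose and 1 fell, beside 18.5% and 16.9% of all genes. Ccr1, the receptor of Ccl6 and Ccl9, measured 10.5, 19.6 and 12.8 CPM without cytokine and 122, 133 and 146 CPM with IL-33 (9.35-fold, adjusted p = 4.5e-10). Ccr7, a lymph node homing receptor, rose 4.74-fold, Ccr3, the eotaxin receptor, 4.61-fold and Ccr2, the receptor of Ccl2 and Ccl7, 1.31-fold, while the atypical receptor Ccrl2 was 1.49-fold lower. With IL-4, 1 rose and 3 fell, beside 25.1% and 22.5% of all genes: Ccr1 was 3.01-fold higher, and Ccr2 was 2.36-fold, Ccrl2 1.57-fold and Ccr3 1.46-fold lower. Ccr2 measured 209, 237 and 233 CPM without cytokine and 96.1, 91.4 and 100 CPM with IL-4, so that Ccr2 was lower in the same libraries in which Ccl2 and Ccl7 were higher.

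With IL-33, 0 of the 7 receptors changed in ST2-/- labelled cells, and 3 rose and 1 fell in floxed-labelled cells, beside 17.1% and 16.3% of all genes. The rise of Ccr3 was smaller in floxed-labelled than in wild-type cells, 1.71-fold against 4.61-fold (log2 difference -1.43 ± 0.22, adjusted p = 0.00123). The response of Ccr2 was also lower (-0.35 ± 0.09, adjusted p = 0.0464). Mean Ccr2 with IL-33 was near equal, at 292 CPM in floxed-labelled and 298 CPM in wild-type cells. Without cytokine it was higher in floxed-labelled cells, 283 against 226 CPM. Ccr3 measured 5.79, 5.90 and 5.23 CPM in floxed-labelled and 15.3, 16.2 and 17.4 CPM in wild-type IL-33 libraries.

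**Figure D4:**
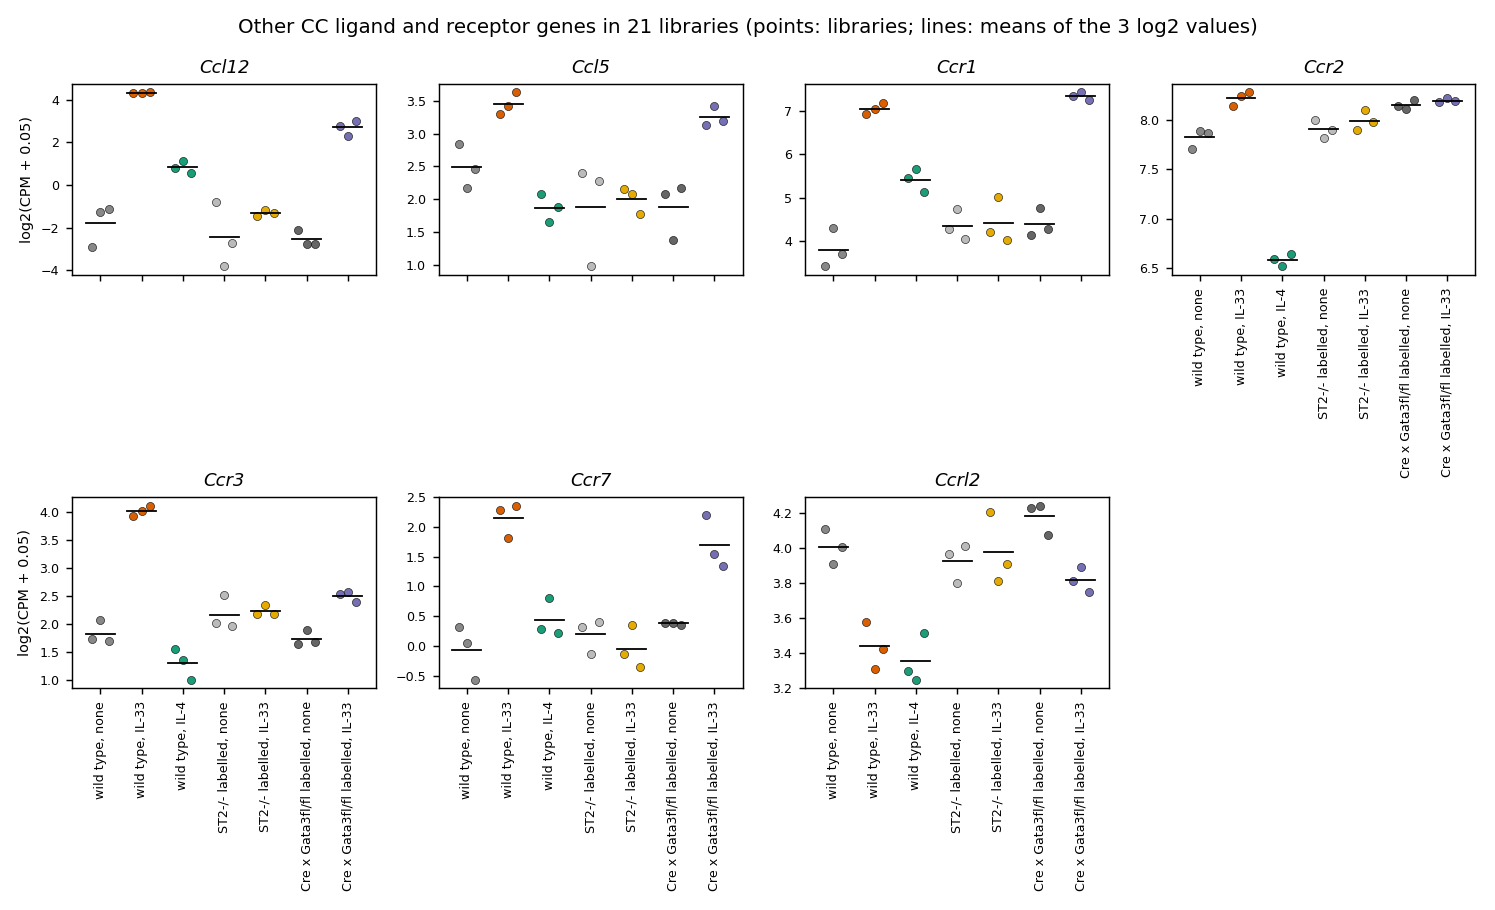
Levels of 2 other CC ligand genes and 5 receptor genes in every library, as log2 of CPM plus 0.05 on the vertical axis (scales differ between panels), for the 7 groups. Points are libraries and lines are means of the 3 log2 values. Ccr1 and Ccl12 are highest with IL-33 in wild-type and floxed-labelled cells, Ccr2 is lowest with IL-4, and Ccr3 with IL-33 is lower in floxed-labelled than in wild-type cells.

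Markers of other cell types moved with some of these results. The summed CPM of 8 dendritic cell markers was 46.2 to 93.4 in untreated wild-type libraries, 127 to 209 with IL-33 and 829 to 1235 with IL-4, and most of it was Itgax, an integrin that macrophages also express (988 CPM with IL-4). The defining dendritic gene Zbtb46 measured 0.0259 to 0.355, 0.676 to 0.952 and 1.64 to 2.61 CPM, and Flt3 0.960 to 2.08, 0.884 to 2.27 and 0.701 to 1.11 CPM, in the same order. None of the 8 markers was at 0 in a whole group.

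The 7 neutrophil markers summed to 17.2 to 21.2 CPM untreated, 41.1 to 44.2 with IL-33 and 12.7 to 14.1 with IL-4, with Ly6g at 0 in the untreated and IL-4 libraries. The 6 mast cell and basophil markers summed to 0.492 to 0.856, 1.32 to 2.54 and 0.556 to 1.04 CPM, with Mcpt4 at 0, and the 3 eosinophil markers to 6.26 to 10.5, 8.87 to 10.4 and 27.8 to 38.7 CPM. The 8 lymphocyte markers summed to 150 to 178, 128 to 140 and 316 to 325 CPM, nearly all of it Il7r (means 165, 134 and 321 CPM). The 6 stromal markers summed to at most 8.88 CPM and the 5 erythroid markers to at most 2.0 CPM in any group. In floxed-labelled cells with IL-33 the neutrophil sum was 49.2 to 73.2 CPM and the mast cell and basophil sum 4.57 to 5.17 CPM. There the eosinophil sum was 17.9 to 19.9, the lymphocyte sum 234 to 267 and the dendritic cell sum 217 to 250 CPM. The 8 macrophage markers summed to 27775 to 30681 CPM untreated, 36681 to 40574 with IL-33 and 14070 to 15632 with IL-4 in wild-type cells. Most of this was Lyz2 (means 21331, 29655 and 9890 CPM). With IL-4, 2 of the 8 macrophage markers were called higher and 6 lower, beside 25.1% and 22.5% of all genes. The part of these markers in the chemokine results was not tested.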

How the data were processed

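RNA-seq read counts per gene were deposited as 1 table of 47069 genes and 21 libraries. Among tools, DESeq2 1.22.2, HTSeq 0.6.1 and HISAT2 2.0.5 are listed in the submitters' processing notes beside GRCm38 (mm10). Strandedness and annotation were not given in the sources used here. Libraries were made from 1 ug of RNA and read as 150-base pairs, per the labels' protocols. Replicate numbers come from the sample titles. From the counts, genes were filtered with filterByExpr (10 counts at median depth, here 0.249 CPM, in at least 3 libraries), leaving 14473 genes with at least 99.97% of the counts of each library. All libraries entered 1 edgeR 4.0.16 quasi-likelihood fit (R 4.3.3, TMM, a mean for each of the 7 groups, 14 residual degrees of freedom, common dispersion 0.00740). P-values were adjusted by Benjamini-Hochberg over all tested genes within each of 11 comparisons, and a gene was called under 0.05. Standard errors come from the quasi-likelihood F statistic and 95% intervals from its t distribution. Exon lengths and positions are from GENCODE M21, which held 46574 of the 47069 identifiers. The script was tested on simulated data. Alternatives were RLE and upper-quartile scaling, no filter, DESeq2 1.42.0, a fit of the groups compared, a replicate block and leaving out each library. All 10 genes, and the called genes of the other CC ligand and receptor lists, are named. A gene of the receptor list is not reported here. For likeness, the 3 most correlated genes per member were drawn, of which the first is printed. The members and lists were chosen with earlier results of these data known.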

Additional observations from a re-analysis of the deposited data

Results flagged for a closer look

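The IL-33 response differed between ST2-/- labelled and wild-type cells for 9 of the 10 genes by the interaction test of edgeR. All 9 were lower, where 12.1% of all genes were called lower and 10.6% higher. Ccl8 and Ccl17 passed the filter only through libraries with cytokine, and without them 7 of 8 were lower. The calls of Ccl17 and Ccl24 depended on single libraries. On the log2 scale, the ST2-/- labelled response minus that of wild-type cells was -3.65 for Ccl2, -0.99 for Ccl4, -2.28 for Ccl6, -5.30 for Ccl7 and -8.96 for Ccl8. It was -1.32 for Ccl9, -2.30 for Ccl22 and -1.70 for Ccl24. For Ccl17 it was -9.31, a fitted value that depends on the prior count because 3 of the 4 groups involved hold 0 or 1 counts. The adjusted p-values run from 3.0e-10 for Ccl6 to 0.0416 for Ccl17.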

How the results depend on the processing

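Over the 10 genes and all comparisons together, 1434 values were recomputed under the alternatives: 1359 kept their direction and their side of the threshold, 31 newly passed it, 44 no longer passed, and none of the called values changed direction. In fits of the compared groups alone, Ccl8 and Ccl17 did not pass the filter in 3 comparisons and have no value. Counts of the 10 genes in 6 comparisons (either cytokine against none, the pair of cytokines against each other, IL-33 in each labelled genotype, and ST2-/- labelled against wild-type cells under IL-33) moved by at most 1, and the ST2-/- interaction count of 9 ranged from 7 to 9 when 1 library was left out. For ST2-/- labelled against wild-type cells without cytokine, the count of 1 was 4 without the expression filter, 2 with DESeq2, 2 with the compared groups fitted alone and 0 to 1 when 1 library was left out. For floxed-labelled against wild-type cells without cytokine, the count of 2 was 1 with upper-quartile scaling, 5 without the filter and 0 to 1 when 1 library was left out. For the same genotypes under IL-33, the count of 5 was 8 without the filter and 3 to 4 when 1 library was left out. For the floxed-labelled interaction, the count of 0 was 2 without the filter. The fit without the filter held 24667 genes and estimated the prior degrees of freedom as infinite, against 7.43 with the filter, so that it gave each gene the spread of the trend in place of its own. Whether this caused the other counts of that fit was not tested, and neither was the cause in the other cases. Whether the replicate numbers pair the libraries was not settled. In 0 of 21 pairs of groups did all 3 same-numbered correlations exceed 0.1 (range -0.08 to 0.25), a rule that cannot exclude pairing. Between the ST2-/- labelled groups these correlations were 0.09, 0.25 and 0.19, while those of unlike numbers reached at most 0.05. Between the IL-33 groups of wild-type and floxed-labelled cells they were 0.07, 0.04 and -0.08, and unlike numbers reached 0.13. With the replicate block, the ST2-/- labelled count without cytokine was 4 in place of 1, with adjusted p-values of 0.0430 for Ccl6, 0.0321 for Ccl7 and 0.0250 for Ccl22.

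Over all genes, counts moved by more than 1.5 times in these cases. The floxed-labelled interaction called 176 genes, 555 without the filter, 384 with DESeq2, 355 with the replicate block and 52 to 273 when 1 library was left out. ST2-/- labelled against wild-type cells without cytokine called 196 genes, 875 without the filter, 438 with DESeq2, 590 with the block and 54 to 208 when 1 library was left out. The floxed-labelled comparison without cytokine called 1425 genes and 658 to 1239 when 1 library was left out, and that under IL-33 called 1642 and 1004 to 1458. IL-33 in ST2-/- labelled cells called 0 genes and 70 without the filter. With upper-quartile scaling, the share of higher calls was 42.8% in place of 52.2% for IL-33 in wild-type cells, 55.1% in place of 46.9% for the ST2-/- labelled interaction and 57% in place of 48.4% for ST2-/- labelled against wild-type cells under IL-33. Other scalings moved the median of all genes by at most 0.05 on the log2 scale. Depth limits Ccl8 and Ccl17, which hold 0 to 15 counts per group where they are low.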

Other observations

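Replicate 2 of a group was often the highest for the members, although the replicate numbers do not mark a shared animal or day in the labels. It was the highest of its group in 5 of the 7 groups for Ccl2, Ccl4, Ccl7 and Ccl24, in 4 of the 7 for Ccl6 and Ccl9, and in 6 of the 7 for Ccr1. For Ccl3 and Ccl22 it was the highest in 2 of the 7, and for Ccl8 and Ccl17 in 1 of the 7. This count was made after the values were seen and has no test.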
